A study of Mus musculus with 2 samples.

Results

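The guidance genes described here are the semaphorins, ephrins, Slits and netrins with their receptors, the plexins, neuropilins, Eph receptors, Robos and Unc5 proteins. They were found by gene symbol, with earlier results of these data known, and 70 of the 18498 rows of the deposited table matched. *Unc5cl* was among them by its spelling and is not an Unc5 guidance receptor. The libraries were 1 of circumvallate papillae (CvP), the large taste papilla at the back of the tongue, and 1 of tongue epithelium without papillae (Epi). Per the labels, both came from male C57BL/6J mice, an inbred strain, aged 12-30 weeks on normal chow, and each was made from poly(A) RNA of at least 20 pooled animals. With 1 library per tissue there was no replicate, no test and no p-value, and each ratio compares these 2 libraries only. The study states that its CvP samples for RT-PCR also held epithelium around the taste buds, and does not say so separately for the sequenced pool. In such bulk tissue, fewer cells of a type and less RNA per cell cannot be told apart.

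Guidance proteins were named for steering growing axons, but many also act between epithelial cells. Semaphorins are secreted or membrane-bound ligands that signal through plexins, and most secreted class 3 semaphorins need a neuropilin as co-receptor. Ephrins are held in the membrane, type A by a lipid anchor and type B by a transmembrane segment, and bind Eph receptor tyrosine kinases on the neighbouring cell. Slits are secreted ligands of Robo receptors, and netrins are laminin-related proteins that bind Dcc, neogenin and Unc5 receptors. In the tongue these systems are known from the innervation of taste buds, which are renewed throughout life and rewired to nerve fibres. Semaphorins 3A and 7A have been linked to the wiring of taste receptor cells.

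Values are RPKM, read densities corrected for exon length and for the mapped reads of the library, so levels of different genes are comparable per length. The step between the lowest values gave about 28369000 mapped reads for the CvP and 27907000 for the Epi. Each ratio has a 95% exact (Clopper-Pearson) interval from estimated reads, widened for the rounding of RPKM to 2 decimals, which covers counting error only. Over the 10363 rows that reached an RPKM of 1 in both libraries the median CvP/Epi ratio was 1.31, a shift of 0.39 on the log2 scale, against which single ratios can be read. A ratio between 1 and 1.31 therefore turns below 1 once divided by this median. Rescaling both libraries to a common sum of RPKM moves every ratio the other way, by a factor of 1.21 (0.27 on the log2 scale). Of the genes within 3-fold described below, 5 change direction under the first scaling and 6 under the second. Listed exon models were up to 4.35 times the longest coding transcript of the GENCODE M1 annotation (*Ntng2*), with a median of 1.13 over the 70 genes. They were more than 1.5 times the transcript for 26 genes and more than 2 times for 13. Among the 13 were *Epha2*, *Sema4c*, *Epha7* and *Efna3*. Where a model is longer, its RPKM is an average over more than the annotated exons. Estimated reads then count the transcript length only, fewer than the whole model implies, which widens the interval.

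The tissues were checked by marker genes. Of the taste cell lists, 4 of 5 type I, 5 of 6 type II and 6 of 6 type III markers were more than 3-fold higher in the CvP. The share among the 12549 rows described below was 15.9%. Of these lists, 3 type I, 4 type II and 6 type III genes reached an RPKM of 1 in the CvP alone and so had to be higher there. The type I exception, *Slc1a3*, went the other way, at 1.04 in CvP and 3.82 in Epi, 3.67-fold higher in the Epi. The type II exception, *Itpr3*, was within 3-fold, at 30.1 and 21.9. Keratinocyte markers were high in both libraries but in different proportions. Of the 7 basal markers, *Krt5* was at an RPKM of 1506 in CvP and 1271 in Epi, *Krt14* at 295 and 1140, and *Itga6* at 43.4 and 18.4. The median of the 7 was 0.65 on the log2 scale. Of the 7, 6 were within 3-fold, and *Krt14* was more than 3-fold higher in the Epi. The 6 differentiated markers all had lower values in the CvP (median of -1.65 on the log2 scale), from *Sprr3* at 1013 and 1338 to *Krt76* at 217 and 5649. Of 7 skeletal muscle markers with a row, 6 were more than 3-fold higher in the Epi, beside 1.96% of the 12549 rows. *Acta1*, *Ckm*, *Des*, *Myh4* and *Tnnt3* reached an RPKM of 1 in the Epi alone and so had to be higher there. The 7 genes summed to an RPKM of 4.36 in CvP and 48.0 in Epi. The 4 salivary gland genes with a row differed widely in both directions. *Lipf* was at 1.96 in CvP and 313 in Epi and *Amy1* at 0.85 and 80.5, while *Pigr* was at 12.0 and 0.54 and *Aqp5* at 6.09 and 0.69. Endothelial, nerve, fibroblast and immune markers were checked as well. The 7 endothelial genes with a row summed to 7.57 in CvP and 0.74 in Epi. Of these, *Vwf* had 4.45 and 0.09 and *Tek* 2.49 and 0.07, while *Cdh5*, *Kdr* and *Pecam1* were at or below 0.28 in both. Of the Schwann cell genes, *Erbb3* was at 40.2 in CvP and 27.0 in Epi, *Mbp* at 10.3 and 8.94, and *Sox10*, the lineage factor, at 0.18 and 0.08. Of 7 neuronal genes with a row, *Tubb3* had 4.58 in CvP and 40.4 in Epi, *Nefl* had 2.32 and 0, and the other 5 were at or below 0.66 in both, with 5 of the 7 listed at 0 in the Epi. The 8 fibroblast genes summed to 46.1 in CvP and 131 in Epi, mostly *Dcn* (26.1 and 128) and *Fbln1* (18.5 and 2.79), and *Col1a1*, *Col1a2* and *Col3a1* were at or below 0.25. The 8 immune genes summed to 32.3 and 8.85, and 4 of the 6 with an RPKM of at least 1 were more than 3-fold higher in the CvP. Of these 4, *C1qa*, *Csf1r* and *Ptprc* reached an RPKM of 1 in the CvP alone and so had to be higher there. The part of these other cells in the values of the guidance genes was not tested.

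Of the 70 guidance genes, 46 reached an RPKM of 1 in either library and 24 did not. Among the 46, 16 were more than 3-fold higher in the CvP, 1 was more than 3-fold higher in the Epi, and 29 were within 3-fold. The share of the 46 above this limit in the CvP was 34.8%, beside 15.9% of all 12549 rows with the same minimum, and the share in the other direction was 2.17%, beside 1.96%. Their median log2 ratio, with a pseudocount of 0.1, was 0.83 beside 0.50 over the 12549 rows. Much of this came from genes that reached the minimum in the CvP alone and so had to be higher there. Of the 16 genes, 13 had an Epi RPKM below 1. Among the 32 guidance genes that reached an RPKM of 1 in both libraries, 3 were more than 3-fold higher in the CvP (9.38%, beside 5.69% of such rows), and their median log2 ratio was 0.35 beside 0.39. By level, 12 of 23 genes whose higher RPKM lay between 1 and 10 passed the limit in the CvP, beside 23.0% of all rows at that level, and 4 of 23 with an RPKM of at least 10 did so, beside 7.58%. The criteria that the study used for candidate genes, a CvP RPKM above 10 with a ratio above 3, were met by 4 of the 70 genes (5.71%, beside 2.35% of the 18498 rows used here). These were *Sema5a*, *Sema4c*, *Epha7* and *Ephb4*.

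**Figure D1:**
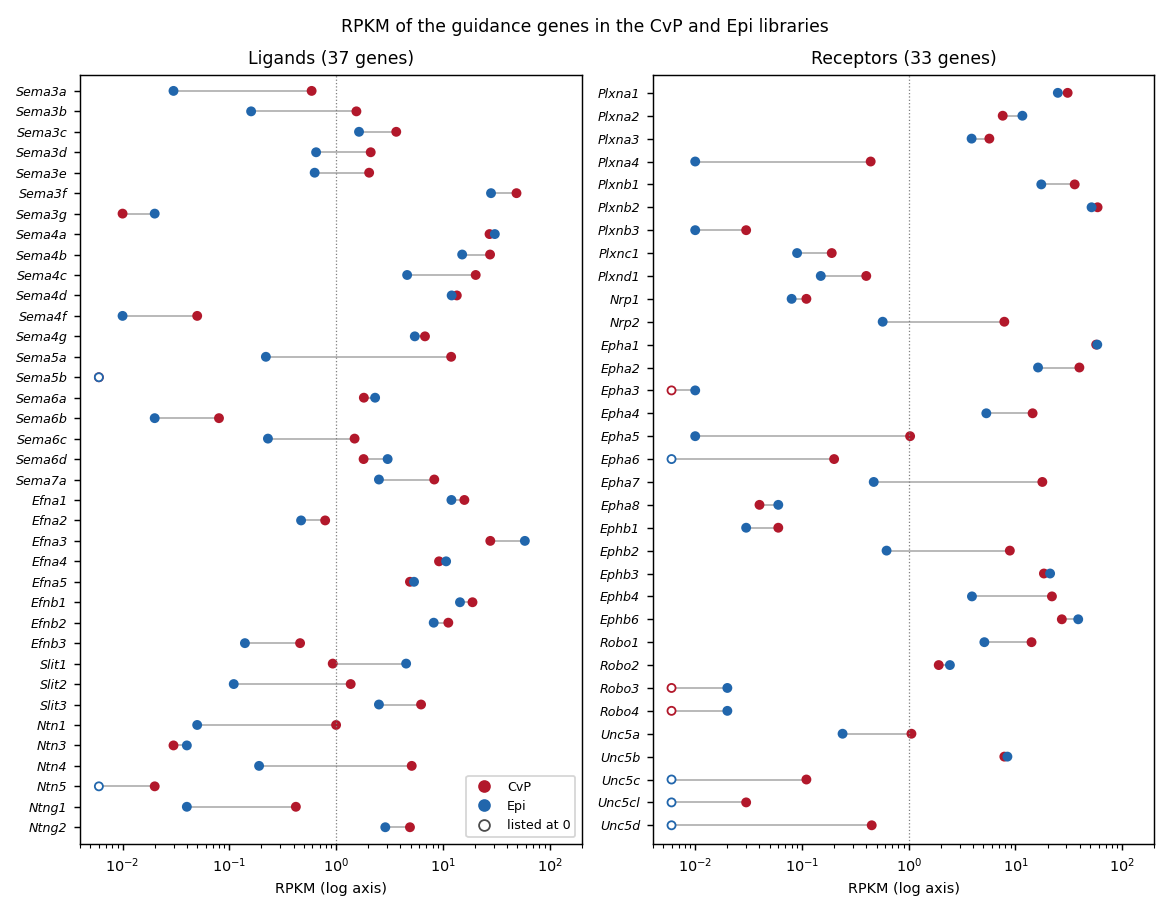
RPKM of the 70 guidance genes in the CvP (red) and Epi (blue) libraries, ligands on the left and receptors on the right, on log axes, with open circles placed at the left edge for values listed at 0 and a dotted line at an RPKM of 1. The widest gaps among well-expressed genes are those of *Sema5a*, *Epha7*, *Ntn4*, *Ephb2* and *Nrp2*, each red to the right, while *Slit1* and *Efna3* have blue to the right.

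Of the ephrins, plexins and Robo genes, 6, 5 and 2 reached the minimum and 0 were more than 3-fold higher in the CvP. All of these reached an RPKM of 1 in both libraries, where 5.69% of all rows were past the limit in the CvP. Counts over so few genes are too small to be set apart from that share. The 16 genes higher in the CvP came from the other classes. They were 10 of the 27 ligands that reached the minimum (*Sema3b*, *Sema3d*, *Sema3e*, *Sema4c*, *Sema5a*, *Sema6c*, *Sema7a*, *Slit2*, *Ntn1* and *Ntn4*) and 6 of the 19 receptors that did (*Nrp2*, *Epha5*, *Epha7*, *Ephb2*, *Ephb4* and *Unc5a*), or 37.0% and 31.6% beside the 15.9% of all rows. Of these, 8 ligands and 5 receptors reached the minimum in the CvP alone. After division by the median ratio of 1.31, 13 of the 16 were still above 3. *Sema3d*, *Sema3e* and *Sema7a* were then at 2.47, 2.47 and 2.51. The whole interval lay above 3 for 12 of the 16, the exceptions being these 3 genes and *Unc5a*. Just inside the limit were *Sema3e* at 3.24 and *Sema3d* at 3.25, and just outside it were *Robo1* at 2.77 and *Epha4* at 2.71. *Ntn1*, at a CvP RPKM of 1.00, lay exactly on the minimum level, and the highest gene below that minimum was *Efna2* at 0.79.

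The promoters of 2 of the strongest of these genes are shown for context, as the 250 bases before the RefSeq start, placed by exact match on the plus strand of NCBI37. Capitals mark the GC box GGGCGG on either strand, including runs where matches overlap. The window of *Sema5a* overlaps annotated exons and is not shown.

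*Epha7*, chr4:28740031-28740280: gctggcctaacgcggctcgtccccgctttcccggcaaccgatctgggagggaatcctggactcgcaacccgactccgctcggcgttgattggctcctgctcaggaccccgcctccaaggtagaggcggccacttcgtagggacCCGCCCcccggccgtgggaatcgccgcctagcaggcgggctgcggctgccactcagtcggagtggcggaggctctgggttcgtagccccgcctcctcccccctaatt

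*Ntn4*, chr10:93103544-93103793: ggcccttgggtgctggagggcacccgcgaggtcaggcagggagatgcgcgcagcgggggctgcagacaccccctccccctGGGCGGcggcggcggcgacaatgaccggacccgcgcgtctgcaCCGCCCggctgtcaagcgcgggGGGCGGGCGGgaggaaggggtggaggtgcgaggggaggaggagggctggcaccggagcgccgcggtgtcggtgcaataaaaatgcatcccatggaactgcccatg

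Both windows were GC-rich, at 69.2% for *Epha7* and 73.2% for *Ntn4*. The *Epha7* window held 1 GC box, 107 bases before the start, and that of *Ntn4* held 4. Neither held a TATA box (TATAAA), a TCF/LEF motif (CTTTGAT), the octamer ATGCAAAT or an E-box CAGCTG. A GC box was found in 12 of 14 such windows of the genes higher in the CvP and in 44 of 61 windows of all guidance genes, beside 59.9% of 8619 windows of genes with an RPKM of at least 1 and 33.0% of all 27025 windows. The median GC content was 67.4% in the 14 windows, 64.4% in the 61, 60.0% in the 8619 and 52.0% in all. These are counts of letters and say nothing of factor binding.

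Semaphorins were the largest class, with 20 genes, of which 15 reached an RPKM of 1 and 7 were more than 3-fold higher in the CvP (46.7%, beside 15.9% of all rows). Of the 7, 5 had an Epi RPKM below 1 and so passed the minimum through the CvP alone. Summed over the class, RPKM was 180 in CvP and 108 in Epi. The class was led by *Sema3f* and the class 4 members *Sema4a*, *Sema4b*, *Sema4c* and *Sema4d*, which were present in both tissues.

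*Sema5a*, a transmembrane semaphorin with thrombospondin repeats, had the largest ratio of the genes with an RPKM above 10. Its RPKM was 12.0 in the CvP, about 3667 reads, and 0.22 in the Epi, about 66 reads. The ratio was 54.4 (95% interval 41.7 to 72.1). Its relative *Sema5b* was listed at 0 in both libraries.

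Of the secreted class 3 semaphorins, *Sema3f* stood far above the others. It held 83.1% (CvP) and 90.0% (Epi) of the summed RPKM of the 7 genes, with levels of 49.0 and 28.3 and a ratio of 1.73 (1.65 to 1.82). Its listed exon model was 2.97 times the annotated transcript. *Sema3c* followed at 3.66 and 1.64. The others were lower. *Sema3b* had 1.55 against 0.16 (ratio 9.69, 5.54 to 19.1), *Sema3d* 2.11 against 0.65 (3.25, 2.61 to 4.08) and *Sema3e* 2.04 against 0.63 (3.24, 2.61 to 4.05). *Sema3a*, the classical collapse factor for sensory growth cones, did not reach the minimum, at 0.59 in the CvP, about 99 reads, and 0.03 in the Epi, about 5 reads, and the ratio lay between 7.12 and 92.0 by its interval. *Sema3g* had 1 and 2 estimated reads. The genes *Sema3a*, *Sema3c*, *Sema3d* and *Sema3e* lie on chromosome 5 of NCBI37 between positions 12383166 and 17236085, and *Sema3b* and *Sema3f* are near neighbours on chromosome 9. The ratios of *Sema3b* and *Sema3f*, 9.69 and 1.73, had intervals that do not overlap.

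Class 4 semaphorins, transmembrane ligands mostly of plexin B receptors, were well expressed in both tissues, apart from *Sema4f*. *Sema4a* was at 27.4 in CvP and 30.7 in Epi, *Sema4b* at 27.7 and 15.2, *Sema4d* at 13.5 and 12.1, and *Sema4g* at 6.80 and 5.46. *Sema4a* was the highest semaphorin in the Epi, and *Sema3f* in the CvP. The ratio of *Sema4a* was 0.89 and turned to 1.08 with a common sum. *Sema4c*, a ligand of plexin B2, differed most, at 20.3 RPKM against 4.63, which gave 4.39 (3.98 to 4.85). Its interval did not overlap that of any other class 4 gene with an RPKM of at least 1. *Sema4f* itself was at 0.05 or below in both.

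Class 6 semaphorins, ligands of plexin A receptors, were low, none above 3.04. *Sema6c* was found at 1.49 in CvP and 0.23 in Epi (ratio 6.48, 3.95 to 10.9). *Sema6a* and *Sema6d* had lower values in the CvP, at 1.82 against 2.32 and 1.81 against 3.04, with ratios of 0.78 (0.68 to 0.91) and 0.60 (0.52 to 0.69). *Sema7a*, the lipid-anchored semaphorin, had 8.31 in the CvP, about 777 reads, and 2.52 in the Epi, about 232 reads. The ratio was 3.30 (2.84 to 3.85), and this interval includes the limit of 3.

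Receptors of the semaphorins were dominated by 3 plexins. *Plxnb2* was at 58.7 in CvP and 51.6 in Epi, *Plxna1* at 30.8 and 24.9, and *Plxnb1* at 35.8 and 17.4. Their listed models were 2.85, 2.31 and 2.60 times the annotated transcript. *Plxnb2* was the highest in its class in both libraries, with 39.8% and 46.7% of the summed RPKM of plexins and neuropilins. Only *Plxnb1*, the receptor of semaphorin 4D, and *Plxna3* (5.69 and 3.88) among the 5 plexins above the minimum stayed above 1 after division by the median ratio, at 1.57 and 1.12. *Plxna1* and *Plxnb2* were below 1 on that scale, at 0.94 and 0.87. *Plxna2* had a ratio of 0.65 (0.62 to 0.69), from 7.59 in CvP and 11.6 in Epi. The remaining plexins were below the minimum. *Plxnc1*, the receptor of semaphorin 7A, had 0.19 and 0.09, *Plxnd1*, the receptor of semaphorin 3E and a gene of vascular endothelium, had 0.40 and 0.15, and *Plxnb3* had 0.03 and 0.01. *Plxna4* had 0.44 in the CvP, about 157 reads, against 0.01 in the Epi, about 4 reads, and the lower end of its interval was 12.8.

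The neuropilins, which select the semaphorin, differed from each other. *Nrp2*, the co-receptor for semaphorin 3F, was at 7.86 in the CvP, about 1499 reads, and 0.57 in the Epi, about 107 reads, a ratio of 13.8 (11.2 to 17.1). *Nrp1*, the co-receptor for semaphorin 3A, was at 0.11 and 0.08, about 18 and 13 reads, with a ratio interval of 0.59 to 3.52, so that no difference was detectable at this depth. *Nrp1* is also a marker of vessels, and of the endothelial genes above, *Vwf* and *Tek* were above an RPKM of 1 in the CvP while the other 5 were not. The listed model of *Nrp2* was 2.90 times its transcript, that of *Nrp1* 1.00 times.

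**Figure D2:**
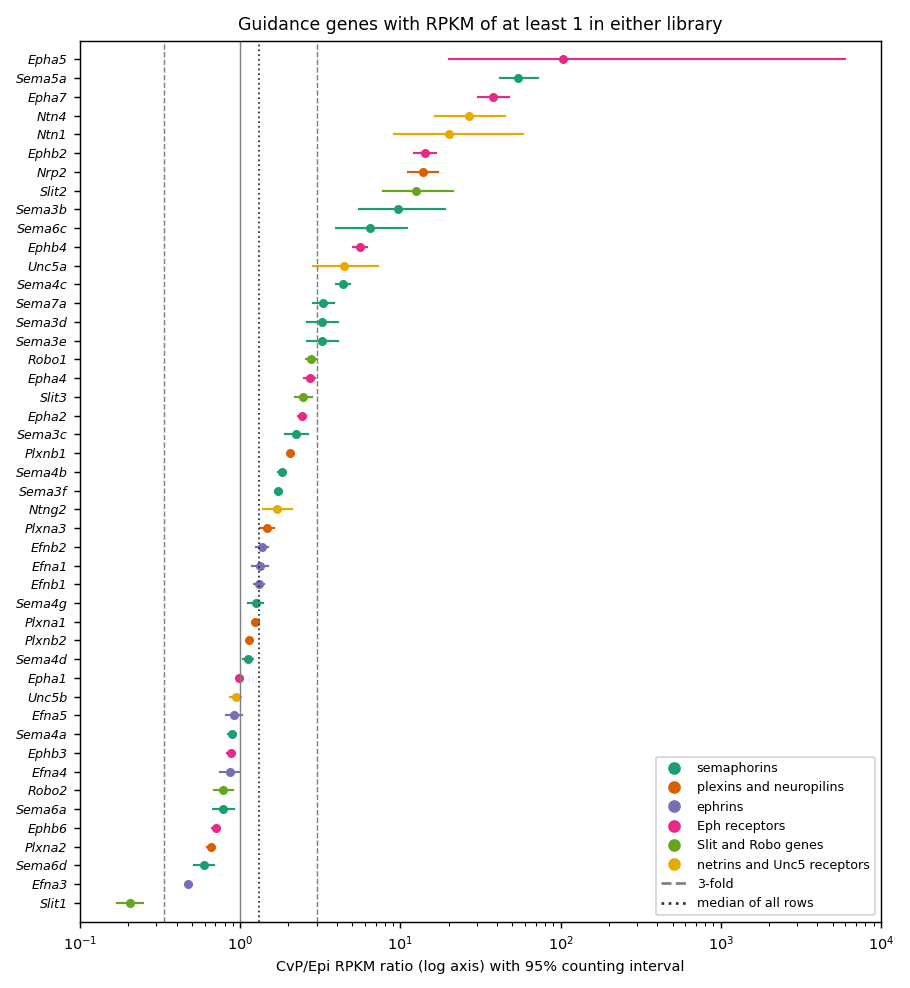
CvP/Epi RPKM ratio of the 46 guidance genes that reached an RPKM of 1 in either library, on a log axis, sorted and coloured by class. Lines are 95% counting intervals, dashed lines mark 3-fold in either direction and the dotted line the median ratio of 1.31; 16 points lie right of the upper dashed line and *Slit1* alone lies left of the lower one.

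Of 8 ephrins, 6 reached an RPKM of 1, all 6 of them in both libraries, and their median log2 ratio was 0.13. Differences of more than 3-fold were found in 0 of the 6, beside 5.69% of such rows higher in the CvP. A count over 6 genes is too small to be set apart from that share. The summed RPKM was 89.3 in CvP and 110 in Epi. *Efna3* was the leading ephrin in both, at 27.8 in CvP and 58.6 in Epi. With a ratio of 0.47 (0.45 to 0.50), it was the only guidance gene besides *Slit1* that was more than 2-fold higher in the Epi among those above the minimum, in the deposited values. It held 53.3% of the summed ephrin RPKM in the Epi and 31.2% in the CvP. *Efnb1* was next in both libraries, at 19.0 in CvP and 14.5 in Epi. *Efna1* was at 15.9 and 12.0, and *Efnb2* at 11.3 and 8.21. Their ratios, 1.31, 1.32 and 1.37, had intervals that include the median ratio of all rows. *Efna4* was at 9.21 and 10.7 and *Efna5* at 4.92 and 5.37, and both ratios turned above 1 with a common sum, to 1.04 and 1.11. *Efna2* and *Efnb3* were below the minimum, at 0.79 or less. *Efna1*, *Efna3* and *Efna4* lie next to each other on the minus strand of chromosome 3 (89075652 to 89141950), with ratios of 1.32, 0.47 and 0.86, and the interval of *Efna3* overlaps neither of the others. Exons of *Efna3* share 344 bases with the non-coding gene *Gm15998* on the opposite strand, whose reads could not be told apart without strand.

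The Eph receptors are the tyrosine kinases that these ligands activate. Of 13 genes, 9 reached the minimum and 4 were more than 3-fold higher in the CvP (44.4%, beside 15.9% of all rows), 3 of them with an Epi RPKM below 1. Their summed RPKM was 207 in CvP and 145 in Epi. *Epha1* was the highest Eph receptor in both tissues, at 57.0 and 58.3. Its ratio was 0.98 (0.94 to 1.02), an interval that includes 1, and 1.18 with a common sum. *Epha1* made up 40.3% of the summed Eph RPKM in the Epi and 27.6% in the CvP. Its listed model was 2.72 times the transcript, and it shares 160 exon bases with *Zyx* on the opposite strand.

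Of the EphA receptors, which bind mainly type A ephrins, *Epha7* had the highest ratio among those with more than 3 Epi reads. It was at 17.8 in the CvP, about 3414 reads, and 0.47 in the Epi, about 88 reads, a ratio of 38.0 (30.6 to 47.7). *Epha7* thus had a higher level than *Epha4* in the CvP and a lower one in the Epi. *Epha2*, an epithelial Eph receptor, had 39.7 and 16.3 (ratio 2.44, 2.31 to 2.58). *Epha4*, which binds ephrins of both types, had 14.5 and 5.33 (ratio 2.71, 2.51 to 2.93). For *Epha5*, with 1.03 in the CvP, the Epi value of 0.01 was about 1 read, and the ratio of 103 is known only to lie between 20.1 and 5944. *Epha6* was at 0.20 in the CvP, about 22 reads, and listed at 0 in the Epi, with a lower end of the interval of 3.50. *Epha3* and *Epha8* had at most 5 reads in CvP and 8 in Epi.

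EphB receptors, which bind mainly type B ephrins, held a pair more than 3-fold higher in the CvP and a pair within 3-fold. *Ephb2* was at 8.85 in the CvP, about 2737 reads, and 0.62 in the Epi, about 189 reads, a ratio of 14.3 (12.2 to 16.8). *Ephb4*, the receptor for ephrin B2, was at 21.9 and 3.91 (ratio 5.61, 5.08 to 6.21). Both were above the 3-fold limit over their whole intervals. *Ephb3* was at 18.5 in CvP and 21.1 in Epi (0.88, 0.83 to 0.92, and 1.06 with a common sum). *Ephb6*, which lacks kinase activity, was at 27.2 and 38.7 (0.70, 0.67 to 0.74). *Ephb1* had 8 and 4 reads. In the Epi, *Ephb6* and *Ephb3* held 60.1% and 32.8% of the summed EphB RPKM, and in the CvP 35.5% and 24.1%. The neighbours *Ephb2* and *Epha8* on chromosome 4 were at 8.85 and 0.04 in the CvP. *Ephb4* shares 33 exon bases with *Zan* on the opposite strand.

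**Figure D3:**
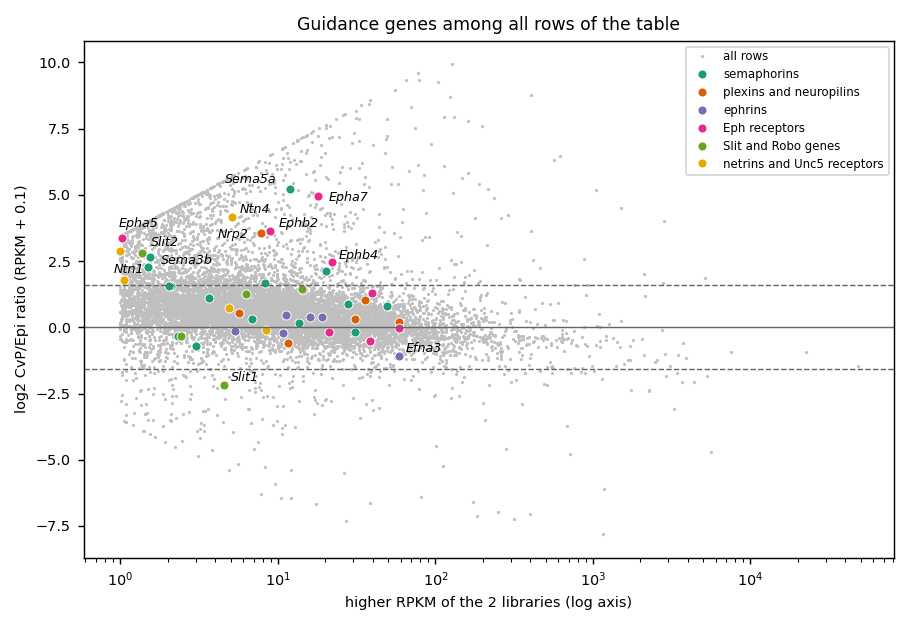
Log2 CvP/Epi ratio (RPKM plus 0.1) against the higher RPKM of the 2 libraries, on a log axis, for the 12549 rows that reached an RPKM of 1 in either library (grey) and the 46 guidance genes among them (coloured by class), with dashed lines at 3-fold. *Sema5a* and *Epha7* lie near 5 on the log2 scale, while the ephrins lie around 0 except for *Efna3* at -1.07. *Slit1* is the only guidance gene below the lower dashed line.

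Slit ligands went in different directions. *Slit2* was at 1.37 in the CvP, about 310 reads, and 0.11 in the Epi, about 25 reads, a ratio of 12.5 (7.83 to 21.4). *Slit1* was at 0.93 in the CvP, about 150 reads, and 4.53 in the Epi, about 717 reads, and was thus 4.87-fold higher in the Epi (4.06 to 5.88). *Slit3* was at 6.25 and 2.52 (2.48, 2.19 to 2.81). The highest Slit in the Epi was therefore *Slit1* and in the CvP *Slit3*. Levels of *Slit1* need care, since its listed model of 22.8 kb was 4.03 times the longest coding transcript of 5.67 kb. The reads given for it are for the transcript length and are below those that the whole model implies. Which part of that model gave the reads cannot be seen from the table.

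Their receptor *Robo1* was at 14.1 in the CvP, about 3032 reads, and 5.11 in the Epi, about 1079 reads, a ratio of 2.77 (2.57 to 2.97). It held 88.1% (CvP) and 67.4% (Epi) of the summed Robo RPKM. *Robo2*, its neighbour on chromosome 16, was at 1.91 and 2.43 (0.79, 0.69 to 0.90). *Robo3* and *Robo4* were listed at 0 in the CvP and at 0.02 in the Epi, at most 3 reads. *Robo4* is a receptor of vascular endothelium. Of the 7 endothelial markers with a row, 5 were below an RPKM of 1 in the CvP and all 7 in the Epi. *Vwf* and *Tek* were at 4.45 and 2.49 in the CvP.

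Among netrins, *Ntn4* stood out. *Ntn4*, which binds laminins in basement membranes, was at 5.11 in the CvP, about 520 reads, and 0.19 in the Epi, about 19 reads, a ratio of 26.9 (16.4 to 45.1). *Ntn1*, the founding guidance netrin, was at 1.00, about 163 reads, and 0.05, about 8 reads, a ratio of 20.0 (9.10 to 58.2). The lipid-anchored *Ntng2* was at 4.92 and 2.89 (1.70, 1.38 to 2.11), with a listed model 4.35 times its transcript. Its relative *Ntng1* was at 0.42 and 0.04, with an interval from 2.98 to 58.3. *Ntn3* and *Ntn5* had at most 5 reads. In the CvP, *Ntn4* and *Ntng2* were close in level, and in the Epi *Ntng2* held most of the netrin RPKM. Exons of *Ntn1* share 127 bases and those of *Ntng2* 558 bases, each with a processed transcript on the same strand.

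The netrin receptor *Unc5b* was at 7.86 in CvP and 8.40 in Epi (0.94, 0.87 to 1.01, and 1.13 with a common sum), and held 82.6% and 97.2% of the summed Unc5 RPKM. *Unc5a* was at 1.06 and 0.24 (4.42, 2.84 to 7.23). *Unc5d* was at 0.45 in the CvP, about 113 reads, and listed at 0 in the Epi, with a lower end of the interval of 19.4. *Unc5c* was at 0.11, about 29 reads, and listed at 0 in the Epi, with a lower end of 4.55. *Dcc*, the attractive netrin receptor, was at 0.01 in the CvP, about 1 read, and listed at 0 in the Epi, while its relative *Neo1* was at 10.5 and 6.93.

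The 24 genes below the minimum ran up to 0.79 in CvP and 0.47 in Epi. Of these, 7 had 3 or fewer estimated reads in both libraries, and another 7 had 3 or fewer in the Epi only. The interval of the ratio lay wholly above 1 for 10 of the 24 and wholly below 1 for none. It lay above 3 for 5, namely *Sema3a*, *Plxna4*, *Epha6*, *Unc5c* and *Unc5d*. The 29 genes above the minimum and within 3-fold had ratios from 0.47 to 2.77. Of these, 17 had a ratio above 1 and 12 below, and after division by the median ratio 12 were above 1 and 17 below.

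The levels of known ligand and receptor pairs can be set side by side. For semaphorin 3F, *Sema3f* was well expressed in both tissues and *Nrp2* mainly in the CvP. For semaphorin 7A, *Sema7a* was at 8.31 in the CvP while *Plxnc1* was at 0.19, and its other receptor subunit *Itgb1* was at 70.3 in CvP and 16.1 in Epi (4.36, 4.13 to 4.60). For semaphorin 3E, *Sema3e* was at 2.04 in the CvP and *Plxnd1* at 0.40. For ephrin B2, *Efnb2* was at 11.3 and 8.21 and *Ephb4* at 21.9 and 3.91. For Slit, *Slit2*, *Slit3* and *Robo1* had higher values in the CvP, while *Slit1* was at 0.93 there and 4.53 in the Epi. Which cells made ligand and receptor cannot be read from bulk RNA.

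Among 65 co-receptors, intracellular effectors and other partners of these systems, 63 had a row and 55 reached an RPKM of 1. Of the 55, 14 (25.5%, beside 15.9% of all rows) were past 3-fold in CvP and 0 in Epi (beside 1.96%), with a median log2 ratio of 0.78. Of the 14, 8 had an Epi RPKM below 1 and so passed the minimum through the CvP alone. Among the 43 partners that reached an RPKM of 1 in both libraries, 6 were past the limit (14.0%, beside 5.69%). The highest levels were those of cytoskeletal regulators, with *Cfl1* (cofilin) at 154 in CvP and 113 in Epi, *Cdc42* at 128 and 107, and *Rhoa* at 107 and 96.3, all within 3-fold. Of the 5 collapsin response mediators, which carry semaphorin signals to microtubules, 3 were among the 14. All 3 had an Epi RPKM below 1 and so passed the minimum through the CvP alone. *Dpysl3* was at 11.8 in CvP and 0.41 in Epi (28.7, 21.9 to 38.0), *Dpysl2* at 2.38 and 0.22 (10.8, 7.12 to 16.9), and *Crmp1* at 2.0 and 0.01, the last about 1 read, with a lower end of the interval of 30.1. *Dpysl4* and *Dpysl5* were not past the limit, at 0.35 and 0.43 and at 1.74 and 0.59.

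The other 11 had varied roles. *Farp1*, an exchange factor linked to plexin A signals, was at 6.60 and 0.09 (73.3, 40.2 to 146). The adhesion molecule *Nrcam*, a partner of neuropilins, was at 2.38 against 0.01, about 2 reads, with an interval from 57.0 to 19971. *Srgap3* and *Srgap1*, GTPase-activating proteins that bind Robo, had 3.72 and 0.10 (37.2, 24.0 to 60.4) and 5.77 and 1.11 (5.20, 4.50 to 6.02), while *Srgap2* had 9.64 and 8.27. *Fes*, a cytoplasmic tyrosine kinase, had a ratio of 9.17 and *Met*, a receptor that associates with plexin B, one of 7.20. *Rgma*, a neogenin ligand, was at 31.1 and 8.34 (3.73, 3.45 to 4.04). *Flrt2*, *Mical3* and *Vav2* had ratios of 3.83, 3.54 and 3.03, and *Itgb1* completed the 14. With ratios divided by the median ratio, 10 of the partners were past 3-fold in the CvP and 1 past it in the Epi, *Vav3*, at 9.74 in CvP and 28.9 in Epi.

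**Figure D4:**
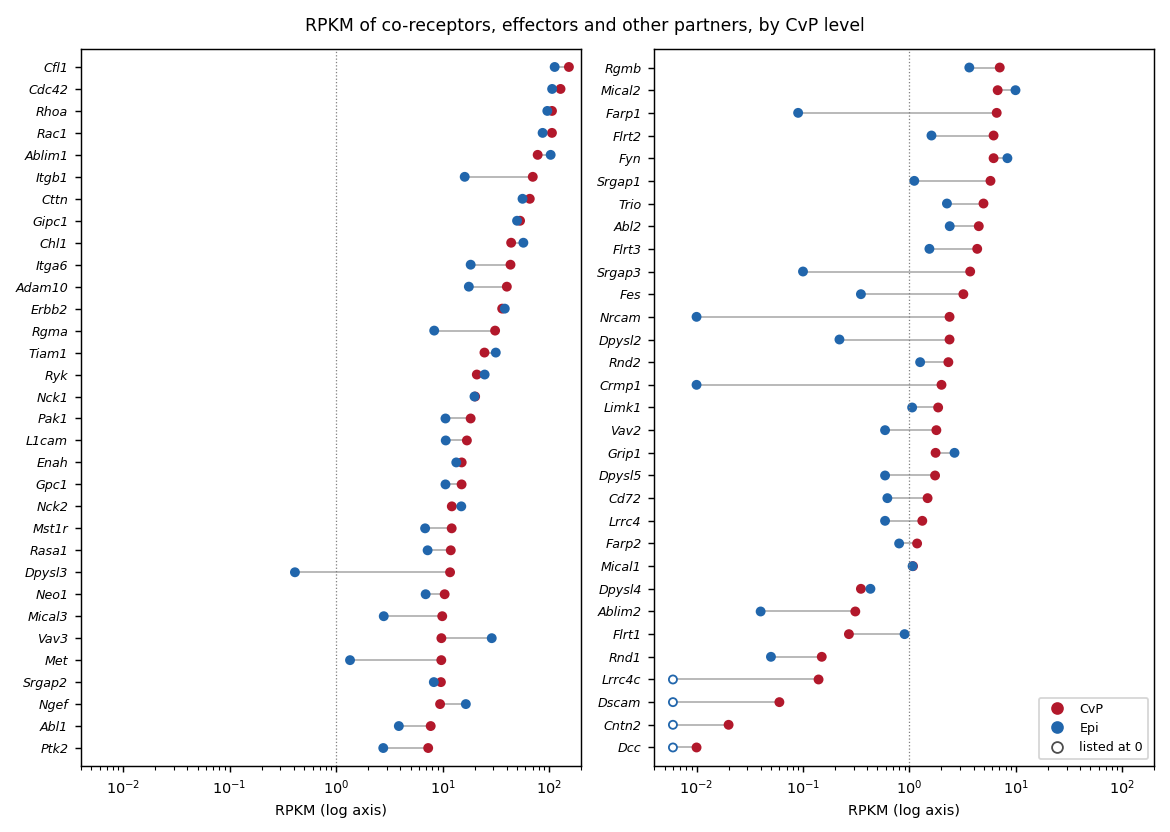
RPKM of the 63 partner genes with a row in the CvP (red) and Epi (blue) libraries, sorted by CvP level, on log axes, with open circles at the left edge for values listed at 0. The widest gaps among genes above an RPKM of 1 are those of *Nrcam*, *Crmp1*, *Farp1*, *Srgap3* and *Dpysl3*, all higher in the CvP.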

How the data were processed

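Each tissue gave 1 RNA pool from 20 or more male C57BL/6J mice, and 1 TruSeq poly(A) library each of circumvallate papillae and of epithelium without papillae was sequenced as single reads. The authors mapped the reads with Bowtie 0.12.7 on NCBI37/mm9 and deposited RPKM values per exon model from ERANGE, whose version and options, with the handling of reads matching several places, are not given in the sources used here. The deposited table also lists a gene length and the authors' own CvP/Epi ratio, and the ratio column was not used. No strand setting is stated.

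Members were found by symbol. The members, gene lists, limits and alternatives were chosen with earlier results of these data known. Full values were given to members past 3-fold and to the highest of each class, and others are named with levels. The partner genes named are those past 3-fold and the 3 highest. *Vav3*, *Srgap2*, *Dpysl4*, *Dpysl5*, *Neo1*, *Dcc* and the marker genes named beyond the 2 highest of a list were chosen after their values were seen. Some genes of the Schwann cell list are not reported here.

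Mapped reads were taken from the step of RPKM in 163 rows of 0.1 kb. In rows of up to 0.5 kb with under 20 reads, 98.2% of CvP and 98.4% of Epi values were whole to within 0.15 reads. Reads per gene are approximate and were estimated with the listed length or, where shorter, the longest GENCODE M1 coding transcript. No fold is given against a value listed at 0. On simulated data the depth was recovered to within 0.047%, and the known ratio lay inside 96.6% of 2800 simulated intervals. Coverage of the printed intervals was not tested, including those that use the transcript length or an Epi value listed at 0. Promoters came from RefSeq (GRCm38.p6) and matched 61 of 70 genes. Windows of over 30 annotated exon bases were not printed. Python 3.11.15, numpy 2.4.6, pandas 2.3.3, scipy 1.17.1 and matplotlib 3.10.9 were used.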

Additional observations from a re-analysis of the deposited data

How the results depend on the processing

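No paired analysis was possible because there is a single library for either tissue. The 16 guidance genes more than 3-fold higher in the CvP became 27 with no minimum RPKM, 8 and 4 at a minimum of 3 and 10, and 7 with a pseudocount of 1. They numbered between 11 and 22 with a limit of 2-fold or 5-fold, with ratios divided by the median ratio, with RPKM rescaled to a common sum, and where the whole interval had to pass the limit. The 1 gene higher in the Epi became 2 at 2-fold, 4 with no minimum, and 0 at 5-fold, at a minimum of 10 and with a pseudocount of 1. The 4 genes meeting the criteria of the study became 8 with a CvP RPKM above 3 or above 5 and 8 with a ratio above 2. The median log2 ratio of 0.83 was 0.60 with no minimum, 0.50 at a minimum of 3, 0.43 after division by the median ratio and 1.10 rescaled to a common sum. The 14 partners higher in the CvP became 22 at 2-fold, and the 0 higher in the Epi became 1 at 2-fold, with no minimum and after division by the median ratio. Of 72 alternative ratios of 24 named genes, 25 stayed within the counting interval of the main value, 47 did not, and 0 changed direction among the genes past 3-fold. Among those of the 24 genes within 3-fold, *Plxnb2* turned from 1.14 to 0.87 after division by the median ratio. With a common sum 3 of them turned, *Epha1* from 0.98 to 1.18, *Sema4a* from 0.89 to 1.08 and *Unc5b* from 0.94 to 1.13. Over all 29 guidance genes within 3-fold, 5 turned under the first scaling and 6 under the second.

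A pseudocount of 1 pulls the ratios of genes with an Epi RPKM below 1 towards 1 by construction. Depth limits genes below an RPKM of about 0.1, which rest on a few reads.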

Other observations

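The pathway column of the deposited table tags 122 rows with axon guidance. Of these, 58 are guidance genes described above and 27 are listed partners. The other 37 are mostly intracellular signalling genes, of which 33 reached an RPKM of 1. Past 3-fold were 4 in CvP (12.1%, beside 15.9% of all rows) and 0 in Epi (beside 1.96%), with a median log2 ratio of 0.47 beside 0.50 over all rows. The 4 had an Epi RPKM below 1, passed the minimum through the CvP alone and were chosen after their values were seen. *Cxcr4*, the receptor of the chemokine Cxcl12, was at 2.45 in the CvP, about 125 reads, and 0.02 in the Epi, about 1 read, with a ratio interval of 21.7 to 4934. *Cxcl12* itself was at 0.08 and 0.05. *Nfatc2*, a calcium-dependent transcription factor, was at 1.09 and 0.08 (ratio 13.6, 7.77 to 27.7), and *Ppp3cc*, a catalytic subunit of the phosphatase calcineurin that activates it, was at 3.35 and 0.33 (10.2, 6.60 to 16.3). *Rgs3*, a regulator of G protein signalling known to bind B ephrins, was at 2.79 and 0.64 (4.36, 3.38 to 5.68).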
